A study of Mus musculus with 11 samples.

Results

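The multidomain BCL-2 family was examined in the embryonic mouse brain as 7 genes chosen by name: the survival genes Bcl2, Bcl2l1, Bcl2l2 and Mcl1, and the pore formers Bax, Bak1 and Bok. All 7 were among the 27179 genes counted, and all 7 passed the filter on low counts that left 14542 genes for testing. RNA came from the brain, cut behind the otic vesicle, of C57BL/6 embryos at embryonic day 9.5, with 1 library per embryo. There were 4 affected females (p53-/- Bim+/-), 4 control males (p53-/- Bim+/-) and 3 control females (p53+/+ Bim+/-). All 11 embryos therefore carried 1 mutant allele of Bim, the BH3-only gene Bcl2l11, and none was fully wild type. The labels do not say how the affected females were affected, and no unaffected p53-/- female is among these samples. The affected females differ from control females in p53 genotype and in being affected, and from control males in sex and in being affected. Control males differ from control females in p53 genotype and sex.

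The BCL-2 family decides whether the outer mitochondrial membrane stays closed. Survival proteins bind and restrain the pore formers and also soak up BH3-only activators such as Bim, whereas freed BAX and BAK assemble into pores that release cytochrome c and start the caspase cascade. In the mouse, combined loss of Bax and Bak1 leaves embryos with surplus brain cells, Mcl1 is required for survival of neural progenitors, and Bcl2l1 for survival of newly born neurons. Bax is a textbook transcriptional target of p53, so its level across p53 genotypes is a natural point of comparison.

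The libraries held 9965900 to 11173484 counts in affected females, 9188848 to 11218682 in control males and 8211942 to 10632842 in control females. Levels are given as CPM, counts scaled to library size with TMM normalisation. Whole-gene counts of Trp53 did not separate the genotypes, at 107 to 139 CPM in affected females, 112 to 132 in control males and 105 to 125 in control females, and they do not show which exons are missing. Ccng1, a direct p53 target, separated them, at 21.8 to 24.5 CPM in affected females, 27.5 to 33.5 in control males and 74.7 to 93.8 in control females. Neural progenitor markers were present in every library, Sox2 among them with at least 797 counts. A pair of libraries stood apart. Control male 4 lay on the side of the affected females on the first principal component (46.8% of the variance), with a score of -13.6, against -38.4 to -24.4 in affected females, 8.96 to 38.8 in the other control males and 9.11 to 31.1 in control females. Control female 1 lay apart on the second component (14.4%), with 42.8 against at most 3.69 in any other library.

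The stretches just upstream of 3 members are shown: Bax for its known tie to p53, Bcl2 as the namesake survival gene, and Bcl2l2 as the survival gene that was lower in affected females. They are RefSeq sequences on GRCm38.p6, 5′ to 3′ on the gene's strand. Each ends before the first transcribed base that RefSeq annotates.
Bax, chr7:45466904-45467148, minus strand: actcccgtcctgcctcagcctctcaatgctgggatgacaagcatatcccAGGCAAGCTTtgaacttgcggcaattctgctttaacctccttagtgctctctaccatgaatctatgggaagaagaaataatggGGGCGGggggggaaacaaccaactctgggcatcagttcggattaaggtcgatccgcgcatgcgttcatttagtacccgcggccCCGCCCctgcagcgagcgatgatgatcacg
Bcl2, chr1:106714291-106714540, minus strand: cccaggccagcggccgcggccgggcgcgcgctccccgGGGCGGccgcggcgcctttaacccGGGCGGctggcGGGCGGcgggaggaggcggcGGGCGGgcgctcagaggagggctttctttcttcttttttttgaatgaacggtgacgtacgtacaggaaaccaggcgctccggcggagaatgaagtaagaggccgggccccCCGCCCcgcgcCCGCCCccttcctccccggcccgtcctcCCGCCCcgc
Bcl2l2, chr14:54883175-54883365, plus strand: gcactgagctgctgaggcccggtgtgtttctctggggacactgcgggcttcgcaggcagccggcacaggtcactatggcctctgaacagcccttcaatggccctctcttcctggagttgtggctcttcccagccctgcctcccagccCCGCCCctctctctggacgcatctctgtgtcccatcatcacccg
Capitals mark the GC box GGGCGG on either strand and, in Bax, a single p53 consensus decamer at positions 50 to 59. Such a decamer is only part of a full p53 site, and full sites were not searched for. All 7 members matched the RefSeq promoter table, with 9 annotated starts, 3 of them for Bcl2l1. The windows of Bcl2l1 and Mcl1 lie inside the annotated spans of these genes, so the bases before the outer ends of those spans were not scanned. Over the 250 bases before each start, the p53 decamer occurred once, in Bax, and in 7.13% of all 32851 promoters of the same length. The GC box occurred 7 times in Bcl2, 2 times in Bax, once each in Bcl2l2, Mcl1 and Bok, and in none of the windows of Bak1 and Bcl2l1. It occurred in 32.7% of all promoters. No member window held CCAAT, which occurred in 33.8% of promoters, or TATAAA, which occurred in 12.4%. A match describes letters in the window and is no evidence of binding.

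Among the members, Mcl1 had the highest level per length and Bcl2 the lowest. On the scale of CPM per kilobase of deposited gene length, the mean of the group means was 59.4 for Mcl1, 36.6 for Bax, 16.4 for Bcl2l1, 13.9 for Bak1, 12.9 for Bcl2l2, 6.22 for Bok and 3.26 for Bcl2. The ranges over 11 embryos did not overlap between Mcl1 and Bax, between Bax and Bcl2l1, between Bcl2l2 and Bok, or between Bok and Bcl2. The middle of the order was less separate. Bcl2l1 and Bak1 overlapped in range although Bcl2l1 was higher in each of the 11 embryos, and Bak1 lay above Bcl2l2 in 7 of 11.

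**Figure D1:**
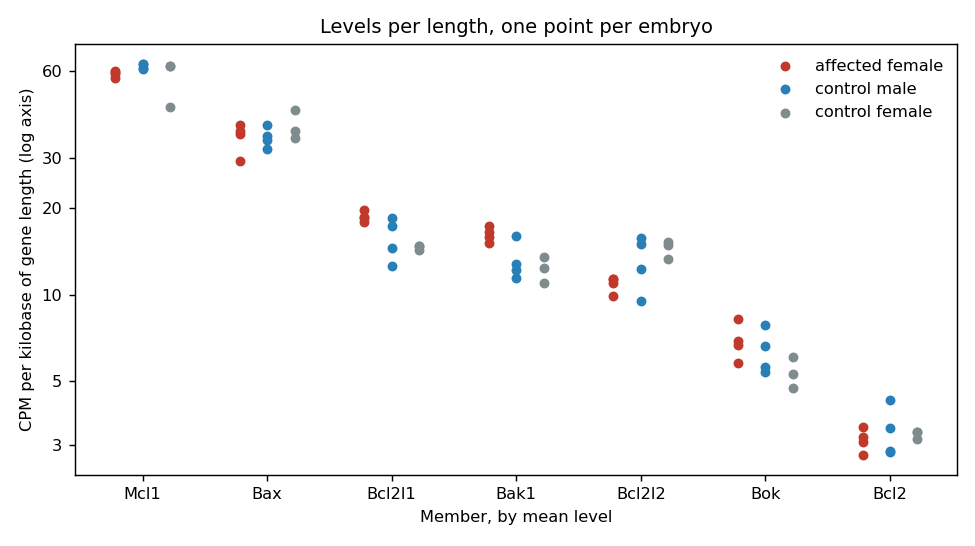
CPM per kilobase of gene length (log axis) for each member, ordered by mean level, with 1 point per embryo coloured by group. Mcl1 (45.1 to 63.9) and Bax (29.3 to 43.9) stood above the other members, and Bcl2 (2.77 to 4.30) lay lowest in every group.

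The pore formers made up 39.0 ± 2.35% of the summed level per length of the 7 members in affected females, 36.6 ± 1.83% in control males and 38.9 ± 4.56% in control females (SD, n = 4, 4 and 3). The ranges overlapped, at 35.8% to 41.3% in affected females, 34.7% to 39.1% in control males and 35.6% to 44.1% in control females. The highest share, 44.1%, was that of control female 1, where Mcl1 was low and Bax high. This share is computed within a library and does not depend on scaling between libraries. It does depend on the division by gene length. Without that division it was 19.0% in affected females, 16.8% in control males and 17.8% in control females.

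In affected against control females, 3 of 7 members changed: Bcl2l1 and Bak1 rose and Bcl2l2 fell (edgeR's quasi-likelihood test, adjusted p below 0.05 over 14542 genes). In this comparison 28.0% of all tested genes were called, 13.0% higher and 15.0% lower, so 3 of 7 is not set apart from the background. The count was also 3 without control male 4 (34.2% of all genes called) and without both control male 4 and control female 1 (38.8%). It was 2 without control female 1, 1 without affected female 1, 2 or 4 or control female 3, and 0 without affected female 3 or control female 2. The number of all genes called also fell in the fits with 0 or 1 member, from 4073 of 14542. It was 1967 of 14497 without affected female 3, 1924 of 14728 without control female 2 and 1663 of 14675 without control female 3. Without affected females 1, 2 and 4 it was 3372, 3435 and 2605. Without control female 1 it was 4579 of 14734. The ranges of these 3 members did not overlap between the groups, as was the case for 40.2% of all genes. The members' median log2 fold change was 0.05, against -0.00 over all genes. The 7 members did not shift in one direction, and each side of the family, survival and pore forming, had 1 member that rose.

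**Figure D2:**
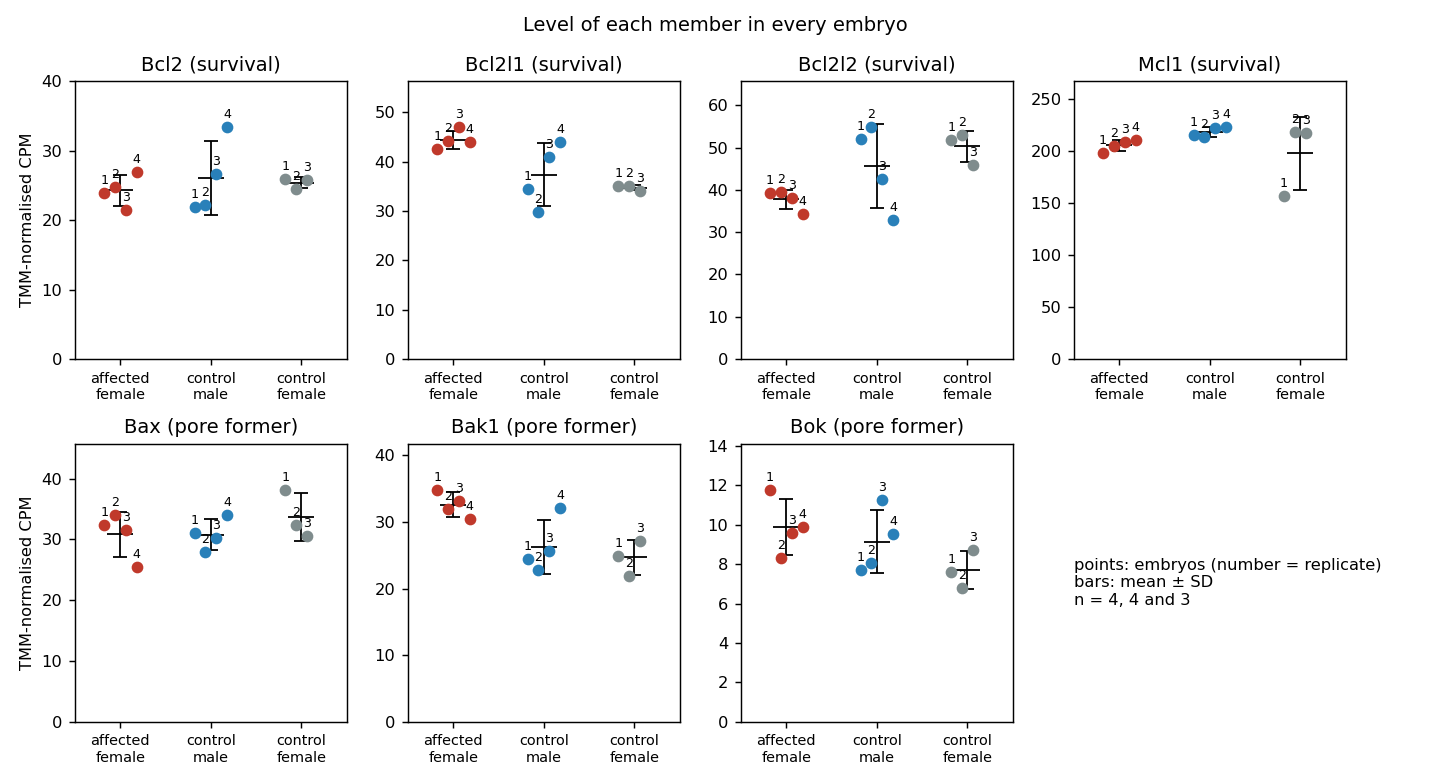
TMM-normalised CPM of each member by group, with 1 numbered point per embryo and the mean ± SD as bars. For Bcl2l1 and Bak1 the affected females lie above the control females, for Bcl2l2 they lie below, and control male 4 sits within or beyond the range of the affected females for all 3 genes.

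Among the survival genes, Bcl2l1 (chr2:152758732-152833803, minus strand) encodes BCL-XL, and its counts do not separate the long survival form from the short splice form. It had 42.7, 44.2, 47.0 and 44.0 CPM in affected females (replicates 1 to 4), 34.4, 29.9, 41.0 and 44.1 CPM in control males, and 35.1, 35.1 and 34.1 CPM in control females (replicates 1 to 3). Every affected female was higher than every control female, control male 4 lay within the affected range, and control males 1 and 2 lay at or below the control females. Affected against control females gave a log2 fold change of 0.35 (SE 0.12, 95% interval 0.11 to 0.60, adjusted p = 0.0349, edgeR), or 27.9% higher. The adjusted p was above 0.05 without affected female 2 (0.0575), 3 (0.1045) or 4 (0.0706), or without control female 2 (0.09) or 3 (0.109), with log2 fold changes of 0.32 to 0.36. The gene overlaps the end of Cox4i2, which had 4 to 20 counts per library.

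Bcl2l2 (chr14:54883366-54890858, plus strand) encodes BCL-W, a survival protein found in neurons. It had 39.2, 39.4, 38.0 and 34.4 CPM in affected females, 52.0, 54.8, 42.6 and 33.0 CPM in control males, and 51.8, 52.996 and 46.0 CPM in control females. The affected females were all below the control females, while the control males spanned both, and control male 4 was the lowest embryo of all. In affected against control females the log2 fold change was -0.41 (SE 0.14, 95% interval -0.71 to -0.12, adjusted p = 0.0388, edgeR), or -24.8%. Leaving out any one of the 7 female libraries took the adjusted p above 0.05: 0.0584, 0.0554, 0.0791 and 0.088 without affected females 1 to 4, and 0.0708, 0.1265 and 0.0638 without control females 1 to 3. The log2 fold change then lay between -0.47 and -0.37. In these bulk samples, fewer cells of a type and less RNA per cell cannot be told apart.

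Mcl1 (chr3:95656944-95663179, plus strand), whose protein turns over within hours and is kept up by steady transcription, was the most highly counted member. It had 198, 204, 209 and 210 CPM in affected females, 215, 213, 222 and 223 CPM in control males, and 157, 219 and 218 CPM in control females. Control female 1 was low, and the other 10 embryos lay within 198 to 223 CPM. All affected females lay below all control males, by a small margin. No other member had ranges that did not overlap in that comparison, while 19.5% of all genes did, counted in either direction. The difference on the log2 scale was -0.09 (95% interval -0.29 to 0.12, adjusted p = 0.526, edgeR) against control males, and 0.05 (-0.17 to 0.27) against control females. Without control female 1 the value against control females turned to -0.08 (SE 0.08, adjusted p = 0.444), and that against control males was -0.09 (SE 0.07, adjusted p = 0.351).

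Bcl2 (chr1:106538176-106714290, minus strand), the family's founding survival gene, had 23.9, 24.8, 21.4 and 26.9 CPM in affected females, 21.9, 22.2, 26.6 and 33.4 CPM in control males, and 25.9, 24.5 and 25.8 CPM in control females. Control male 4 was the highest embryo and the groups overlapped. The log2 fold change in affected females was -0.07 (95% interval -0.36 to 0.23) against control females and -0.10 (-0.38 to 0.17) against control males; without control male 4 the value against control males turned to 0.04 (adjusted p = 0.801, edgeR).

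Of the pore formers, Bak1 (chr17:27019812-27028627, minus strand) encodes BAK, which resides in the outer mitochondrial membrane. It had 34.8, 31.9, 33.2 and 30.4 CPM in affected females, 24.5, 22.8, 25.6 and 32.2 CPM in control males, and 24.9, 21.9 and 27.2 CPM in control females. The affected females were the 4 highest embryos but for control male 4, which fell among them. The log2 fold change in affected against control females was 0.40 (SE 0.12, 95% interval 0.14 to 0.66, adjusted p = 0.0274, edgeR), or 31.9% higher. The adjusted p was above 0.05 without affected female 1 (0.0623), affected female 3 (0.076) or control female 2 (0.1232), with log2 fold changes of 0.37, 0.38 and 0.32. Bak1 lies within the span of Ggnbp1, which had 1 to 15 counts per library, so reads in shared stretches could go uncounted.

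Bax (chr7:45461695-45466903, minus strand) encodes BAX, which moves from the cytosol to mitochondria when activated. It had 32.4, 34.0, 31.5 and 25.5 CPM in affected females, 31.1, 27.9, 30.2 and 34.0 CPM in control males, and 38.1, 32.4 and 30.5 CPM in control females. The 3 groups overlapped, and the highest embryo was control female 1. Against control females, which carry p53, the log2 fold change was -0.12 (95% interval -0.37 to 0.13, adjusted p = 0.437, edgeR) in affected females and -0.12 (-0.38 to 0.13, adjusted p = 0.878) in control males. The 2 comparisons share the control females, and both values rest on control female 1: without it they were -0.03 (SE 0.12, adjusted p = 0.885) in affected females and -0.03 (SE 0.12, adjusted p = 0.966) in control males. The interval in affected females spans 0.771 to 1.09 of the control female level, and differences inside it remain compatible with these data. With GC and length trends removed, the value in affected females turned to 0.04, uncalled. Ccng1 changed far more, by a log2 fold change of -1.91 (SE 0.10) in affected females and -1.52 (SE 0.10) in control males.

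Bok (chr1:93685575-93695770, plus strand) encodes a further pore former, which acts without BAX and BAK and is kept low by protein turnover. With 61 to 118 counts per library it was the least well measured member. It had 11.8, 8.32, 9.60 and 9.88 CPM in affected females, 7.71, 8.06, 11.2 and 9.54 CPM in control males, and 7.60, 6.78 and 8.71 CPM in control females. Affected female 2 overlapped the control females. Affected females stood at a log2 fold change of 0.36 against control females (SE 0.17, 95% interval -0.01 to 0.73, adjusted p = 0.13, edgeR), similar in size to Bcl2l1 and Bak1 with a wider interval.

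**Figure D3:**
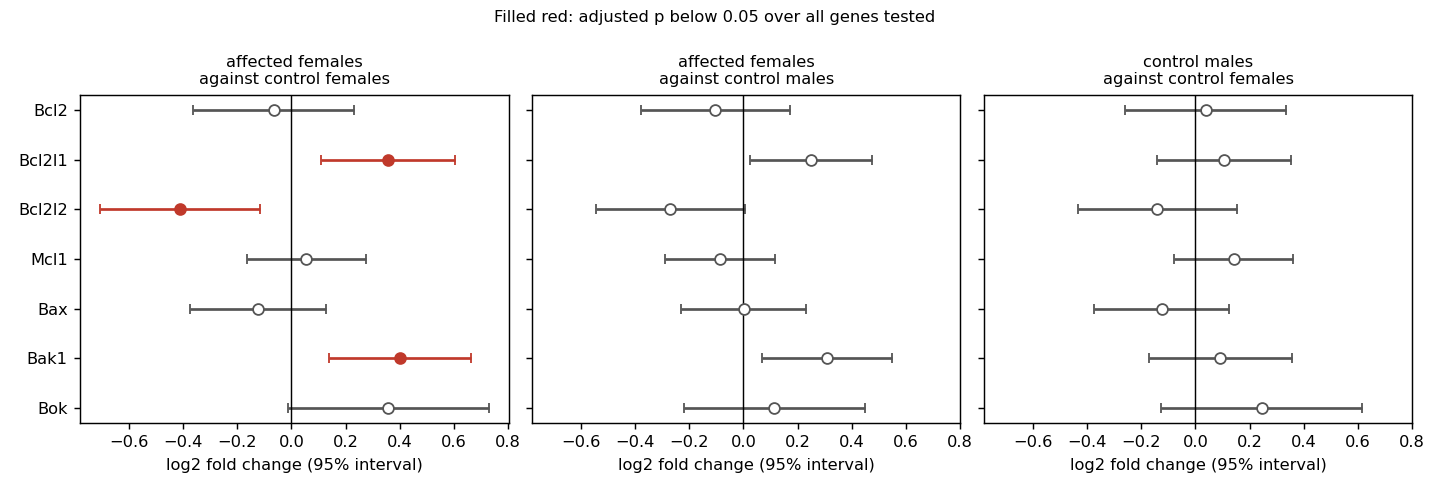
Log2 fold change of each member with its 95% interval from edgeR in the 3 comparisons, filled red where the adjusted p over all genes is below 0.05. Filled points appear in affected against control females alone, for Bcl2l1 (0.35), Bak1 (0.40) and Bcl2l2 (-0.41).

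Against control males, which share the p53-/- Bim+/- genotype, none of 7 members was called in affected females, where 20.2% of all genes were called (edgeR). At an unadjusted p below 0.05 there were 2, Bcl2l1 and Bak1. DESeq2 called 0 members, and 3336 of all 14542 genes. The limma voom fit with sample weights called 1 member, Bak1, and 6397 of all 14542 genes. Bcl2l1, Bak1 and Bcl2l2 stood at log2 fold changes of 0.25 (95% interval 0.02 to 0.48, adjusted p = 0.1), 0.31 (0.07 to 0.55, adjusted p = 0.0617) and -0.27 (-0.55 to 0.00, adjusted p = 0.139), each with the sign it had against control females. Both comparisons use the same affected females, so these signs are not independent. Control male 4 decided the count. Without it, all 3 were called, with 0.34 (adjusted p = 0.0176) for Bcl2l1, 0.42 (adjusted p = 0.00587) for Bak1 and -0.40 (adjusted p = 0.0069) for Bcl2l2, and 35.4% of all genes were called. Without both control male 4 and control female 1 the count was again 3, with 40.9% of all genes called. Bax, with 0.00 (-0.23 to 0.23), and Bok, with 0.11 (-0.22 to 0.45), had intervals that included 0.

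Control males against control females showed no called member (edgeR; 0 at an unadjusted p below 0.05, 0 by DESeq2 and 0 by limma voom), where 0.144% of all genes were called, 0.0481% higher and 0.0963% lower. These shares are from edgeR, and both DESeq2 and limma voom called more genes in this comparison. The count stayed 0 without control male 4 (0.159% of all genes called) and without both control male 4 and control female 1 (0.163%). The log2 fold changes lay between -0.14 for Bcl2l2 and 0.24 for Bok, and the adjusted p-values between 0.855 and 0.978. No member had ranges that did not overlap, against 5.54% of all genes. The 95% intervals reached as low as -0.43, for Bcl2l2, and as high as 0.62, for Bok, so modest differences remain compatible with these 4 and 3 embryos.

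Bcl2l1, Bak1 and Bcl2l2 varied together over the 11 embryos pooled and among the control males, with no common pattern within the female groups. Over the 11 embryos, Pearson's r of log2 CPM was -0.90 between Bcl2l1 and Bcl2l2, -0.88 between Bak1 and Bcl2l2 and 0.85 between Bcl2l1 and Bak1. These are descriptions over embryos that share group, library and depth. The 3 genes were singled out because affected and control females differ in them. That difference alone tends to give pooled correlations of these signs. Within the control males, embryos 2 and 1 had the highest Bcl2l2 and the lowest Bcl2l1 and Bak1, embryo 3 lay between, and embryo 4 had the lowest Bcl2l2 and the highest Bcl2l1 and Bak1. Within affected females, Bak1 and Bcl2l2 were both lowest in replicate 4, at 30.4 and 34.4 CPM. Within control females, Bcl2l1 and Bcl2l2 were both lowest in replicate 3, at 34.1 and 46.0 CPM. Bak1 was highest there, at 27.2 CPM. The ratio of Bcl2l1 to Bcl2l2 per length, which needs no scaling between libraries, was 1.59, 1.63, 1.80 and 1.87 in affected females, 0.966, 0.796, 1.41 and 1.95 in control males, and 0.990, 0.966 and 1.08 in control females. Bcl2l1 exceeded Bcl2l2 per length in every affected female, and the pair was near parity in every control female. Bak1 per length stood at 0.408 to 0.518 of Bax in affected females, 0.341 to 0.411 in control males and 0.284 to 0.387 in control females. The affected females lay above the control females and overlapped only control male 4. Bok also varied with these 3 members, with r of 0.62 to Bcl2l1, 0.68 to Bak1 and -0.69 to Bcl2l2. Bax and Bcl2 followed them less closely, with r between -0.53 and 0.31 to Bcl2l1, Bak1 and Bcl2l2.

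**Figure D4:**
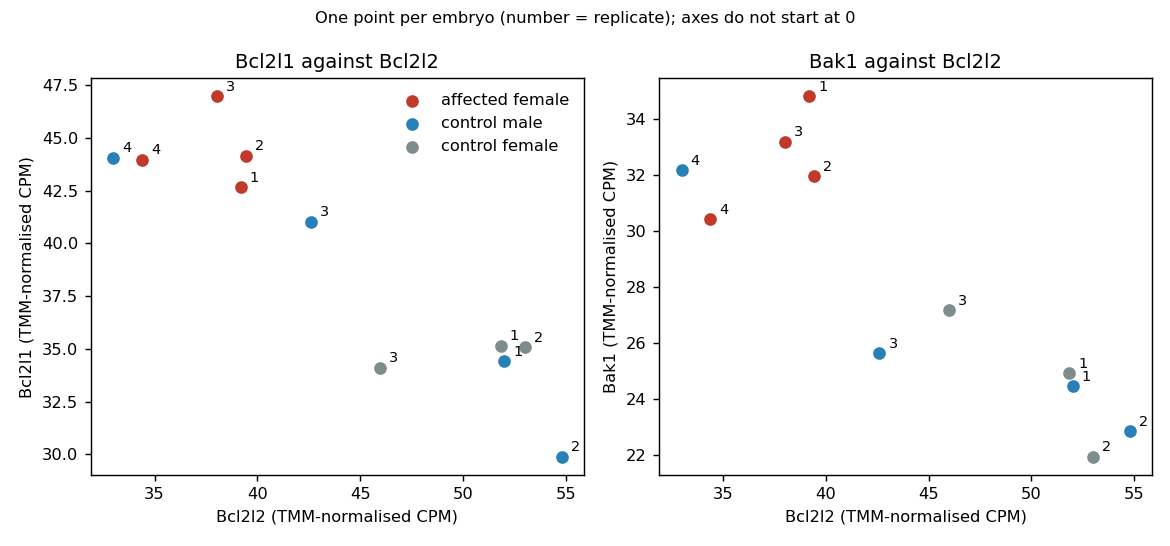
Bcl2l1 (left) and Bak1 (right) against Bcl2l2 in TMM-normalised CPM, with 1 numbered point per embryo; the axes do not start at 0. Affected females and control male 4 sit at low Bcl2l2 (33.0 to 39.4 CPM) and high Bcl2l1 and Bak1, and the other embryos at 42.6 CPM of Bcl2l2 or more.

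Other measures also differed between the groups. Over all genes, 13.0% rose and 15.0% fell in affected against control females, and 9.51% rose and 10.7% fell against control males. Of 10 early neuron markers 9 fell and none rose in affected against control females, 7 fell against control males, and their summed level was 106 to 131 CPM in affected females, 185 to 317 in control males and 124 to 307 in control females. None of the 10 was at 0 in any library; the lowest was Nhlh2 with 12 counts. By embryo, the sums were 194, 317, 185 and 189 CPM in control males 1 to 4 and 124, 266 and 307 CPM in control females 1 to 3. Control male 2 was highest both in this sum and in Bcl2l2, whereas control male 4 had the lowest Bcl2l2 with a sum close to those of control males 1 and 3, and control female 1 had a low sum with 51.8 CPM of Bcl2l2. Of 7 surface ectoderm markers all 7 rose against control females and 5 against control males, with sums of 186 to 218 CPM in affected females, 110 to 152 in control males and 96.3 to 170.1 in control females. Of 6 neural crest markers 5 rose against control females and 2 against control males, with sums of 297 to 355 CPM in affected females, 230 to 272 in control males and 206 to 222 in control females. Control male 4 had the highest surface ectoderm and neural crest sums of the control males, 152 and 272 CPM. Control female 1 had a higher surface ectoderm sum, 170 CPM. Its Bcl2l1, Bak1 and Bcl2l2, at 35.1, 24.9 and 51.8 CPM, lay outside the ranges of the affected females. Grhl3 with 18 and Foxd3 with 7 were the lowest counts of these lists. Among the other lists, against control females, 3 of 9 neural progenitor markers rose and 1 fell, 2 of 6 tested head mesenchyme markers rose, 1 of 7 endothelial markers fell and none of 7 primitive erythroid markers was called. The primitive erythroid sums differed widely among the control females, at 502, 4121 and 3926 CPM in replicates 1 to 3. They were 1030 to 2131 CPM in affected females and 1977 to 3432 in control males. Of 13 p53 targets 7 fell. Mitochondrially encoded transcripts made up 1.31% to 1.69% of counts in affected females, 2.06% to 3.82% in control males, with the 2.06% in control male 4, and 2.48% to 4.99% in control females. The part of these in the changes of Bcl2l1, Bak1 and Bcl2l2 was not tested.

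The genes most like each changed member were taken among 11806 genes by Pearson's r of log2 CPM over 11 embryos. For Bcl2l1 they were the gene with Entrez identifier 100861974, which has no symbol in the tables used (r = 0.98), Spred1, a brake on RAS-MAPK signalling (0.98), and Cnot9, a subunit of the CCR4-NOT deadenylase (0.98). For Bcl2l2 they were BC065397 (0.98), the RAF kinase gene Araf (0.98) and Ogt (0.98), the enzyme that adds O-GlcNAc to proteins. For Bak1 they were the kinase gene Map4k5 (0.97), the gene with Entrez identifier 100503154 (0.97) and Gbx2 (0.96), a transcription factor of the anterior hindbrain. The highest of so many correlations over so few embryos are high by selection.

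The ligands of these proteins, the BH3-only genes, were mixed. Of 8, 7 were tested and Bik was too low. Changes of this and the following lists are on the log2 scale. Over all genes, 28.0% were called in affected against control females, 20.2% against control males and 0.144% in control males against control females. In affected against control females 2 of the tested BH3-only genes rose and 1 fell. Bmf, whose product is held on the cytoskeleton until stress frees it, rose by 0.99 (SE 0.13, adjusted p = 0.000998, edgeR), and Bid, which links death receptors to mitochondria once cleaved, by 0.61 (SE 0.17, adjusted p = 0.018). Bcl2l11 averaged 43.7 ± 4.29 CPM in affected females, 40.2 ± 5.12 in control males and 76.7 ± 5.56 in control females (SD, n = 4, 4 and 3), although the labels give every embryo the same Bim genotype. Against control males 1 rose, Bmf. The p53 targets Bbc3 (PUMA) and Pmaip1 (NOXA), both activators of apoptosis, were not called in any comparison; Bbc3 had 6 to 18 counts per library.

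Of 11 further BCL-2 relatives, 5 were tested. The Bcl2a1 genes and Bcl2l10 had at most 3 counts in any library, so these survival relatives were at the limit of detection. Bcl2l13, a mitochondrial relative linked to mitophagy, rose by 0.30 (SE 0.10, adjusted p = 0.0385, edgeR) and Bcl2l12 fell by 0.67 (SE 0.24, adjusted p = 0.0441) in affected against control females. Bcl2l12 was also lower against control males, at -0.70 (SE 0.22).

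Of 12 outer membrane partners of the pore formers, 1 rose and 2 fell against control females, and the same counts against control males. These counts were close to the shares over all genes, 28.0% and 20.2%. Vdac1, the main anion channel, rose by 0.50 (SE 0.14, adjusted p = 0.0207, edgeR), and Mff, a receptor for mitochondrial fission, fell by 0.39 (SE 0.10, adjusted p = 0.0106). Mtch2, a docking protein for truncated BID, fell by 0.30 (SE 0.09, adjusted p = 0.0252). Vdac2, which recruits BAK and BAX, stood at 0.13 (SE 0.09, adjusted p = 0.269).

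Among 7 genes that set the stability of MCL-1 protein, 2 rose and 1 fell against control females, and 3 rose and 1 fell against control males. Huwe1, a ubiquitin ligase for MCL-1, rose by 0.42 (SE 0.11, adjusted p = 0.0115, edgeR) and Usp9x, a deubiquitinase that stabilises MCL-1, by 0.60 (SE 0.12, adjusted p = 0.00478) against control females; they act in opposite directions, and both lie on the X chromosome. Against control males they rose by 0.58 (SE 0.10) and 0.73 (SE 0.11), and Gsk3b, a kinase that marks MCL-1 for turnover, by 0.32 (SE 0.10). Trim17, a ligase for MCL-1 in mouse neurons, fell by 1.46 (SE 0.37, adjusted p = 0.0123) against control females, near the floor with 4 to 19 counts per library. MCL-1 protein was not measured.

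Downstream of the pore, 1 of 12 genes rose and 2 fell against control females, and 3 rose and 2 fell against control males. The count against control females was close to the 28.0% called over all genes. Aifm1, a mitochondrial flavoprotein and X-linked, rose by 0.42 (SE 0.09, adjusted p = 0.00602, edgeR). Birc2 (cIAP1) fell by 0.71 (SE 0.12, adjusted p = 0.00302) and Htra2, a protease released through the pore, by 0.38 (SE 0.10, adjusted p = 0.0166). Apaf1 and Casp9, the scaffold and the initiator caspase of the apoptosome, rose against control males by 0.36 (SE 0.10, adjusted p = 0.0254) and 0.33 (SE 0.09, adjusted p = 0.0208), and stood at 0.18 (SE 0.11) and 0.23 (SE 0.09) against control females. The difference between these values was not tested. Cycs, which encodes cytochrome c, stood at -0.24 (SE 0.18) against control females. None of the genes of these lists was called in control males against control females, with the exception of Bcl2l11, at -0.93 (SE 0.11, adjusted p = 0.000217, edgeR).

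**Figure D5:**
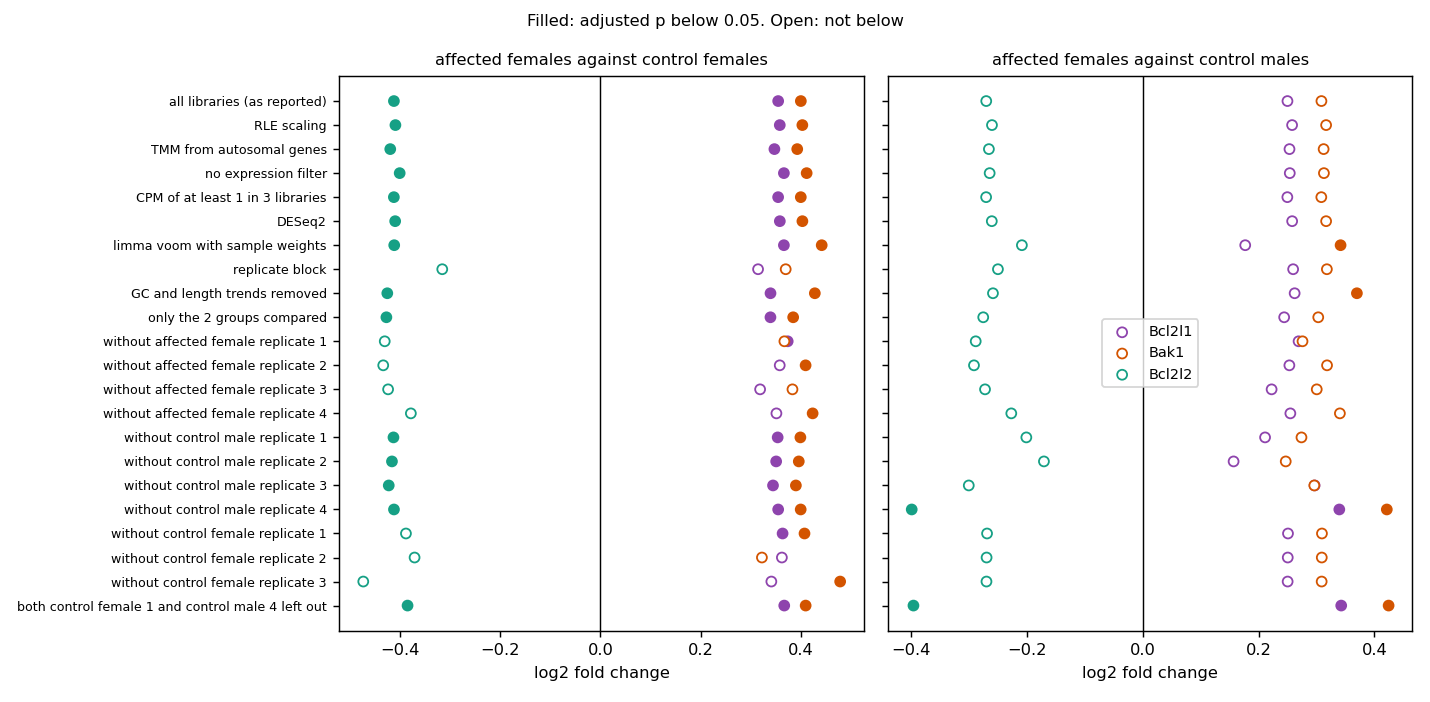
Log2 fold changes of Bcl2l1, Bak1 and Bcl2l2 under each way of processing, with affected females against control females on the left and against control males on the right; points are filled where the adjusted p is below 0.05. All points keep their sign; calls on the left are lost when single female libraries are left out, and all 3 genes are called on the right only without control male 4.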

How the data were processed

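The authors deposited raw counts per Entrez gene, with gene length, for 1 library per embryo, made with featureCounts on mm10 according to the submitters' processing notes. The aligner, the versions and the strand setting were not given in the sources used here. A whole-series table repeated the counts and was not used. Symbols and positions came from RefSeq GRCm38.p6 (25275 of 27179 identifiers matched).

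The 11 libraries entered 1 quasi-likelihood fit with edgeR 4.0.16 in R 4.3.3 (filterByExpr, TMM, group as the only factor, Benjamini-Hochberg over 14542 genes, threshold 0.05). The SE is the log2 fold change divided by the square root of F, and intervals are 95%. Log2 CPM used a prior count of 2. The fit was tested on simulated data.

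Other settings tried were RLE scaling, autosomal TMM factors, no filter or CPM of at least 1 in 3 libraries, DESeq2 1.42.0, limma 3.58.1 voom with sample weights, a replicate block, other sets of libraries and, added after the data were seen, removal of GC and length trends (GC known for 94.6% of tested genes).

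The members, the gene lists and the tests were chosen with earlier results of these data known. Text names the members, up to 4 called genes per list, and the 3 genes most like each called member; Apaf1, genes named without a call (Vdac2, Bbc3, Pmaip1, Cycs, Bik and the low Bcl2 relatives) and the neighbours Cox4i2 and Ggnbp1 were chosen outside that rule. Labels name separate embryos but no litters or batches, so litter could not be tested; p-values measure the spread between these embryos. No 2 libraries of a group agreed within sampling noise (chi-square over its degrees of freedom 2.73 to 31.6), so none was treated as a duplicate.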

Additional observations from a re-analysis of the deposited data

Results flagged for a closer look

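One value stood apart within its group by Dixon's test, among 28 groups of 4 embryos tested; chance gives about 1 in 20. The ratio of Bcl2 to Bax per length was 0.119 in affected female 4, against 0.0763 to 0.0828 in the other affected females, 0.0789 to 0.110 in control males and 0.0762 to 0.0948 in control females. In that embryo Bcl2 was the highest (26.9 CPM) and Bax the lowest (25.5 CPM) of its group.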

How the results depend on the processing

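Bcl2l1, Bak1 and Bcl2l2 kept their direction under all 21 alternatives in both comparisons of affected females, which share those embryos. Of the uncalled members, Mcl1 and Bax changed sign in some against control females, and Bcl2, Bax and Bok in some against control males. Bok and Bcl2 against control females and Mcl1 against control males kept their sign in all 21. Against control females the 3 members called became 0 with the replicate block, and 0 to 3 when single libraries were left out: 0 without affected female 3 or control female 2, 1 without affected female 1, 2 or 4 or control female 3. Same-numbered embryos correlated in their deviations in 3 of 10 pairs above 0.1 (-0.136 to 0.178), so the numbers were not taken to pair them. Against control males the 0 called became 1 with voom, 1 with GC and length trends removed, 3 without both control female 1 and control male 4, and 0 to 3 leaving out single libraries. In control males against control females it stayed 0 under every alternative. Over all genes, voom called 7639, 6397 and 1569 in the 3 comparisons, DESeq2 called 43 in the last, and the fit without control female 1 and control male 4 called 6014 against control males. Leaving out single libraries gave 1663 to 4957, 361 to 5140 and 18 to 35 against 4073, 2940 and 21. The pore formers' share without division by length was 19.0%, 16.8% and 17.8% in affected females, control males and control females; leaving out single embryos gave 38.2% to 40.0%, 35.8% to 37.2% and 36.3% to 40.5%. The causes were not tested. With 3 or 4 embryos a group, depth (61 to 118 counts) limits Bok most.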
